A study of Mus musculus with 6 samples.

Results

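New spliced intergenic loci are stretches of the mouse genome in which the authors' transcript assembly joined at least 2 exons on a known strand and classed every transcript as intergenic against the annotation they used. A locus was taken when all of its assembled transcripts carried the assembler's class code u, which marks an unknown intergenic transcript, when at least 1 transcript had 2 or more exons, and when its strand was given. One locus that met these terms was set aside and is not analysed here. Among 39470 counted loci 1657 qualified, and the 1430 with at least 60 counts over the 6 libraries are described here. The threshold fell within a continuous range of counts, with 45 loci at 60 to 69 counts just inside it and 51 at 50 to 59 just outside. For 59 loci, 19 through the high fat and 40 through the normal diet libraries, only the diet with more counts carried them past it, since the other diet's counts doubled fall short. A call in these loci follows in part from the filter, and it concerns 4 of the rises and 3 of the falls below.

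Islet RNA was taken from mice of the inbred strain C57BL/6, which were 14 weeks old when killed. One group had been fed a normal diet and the other a high fat diet, for 8 weeks, with 3 libraries in each. The count columns of the second group carry the abbreviation HDR, which was read as high fat diet from the names alone, and every direction given here depends on that reading. Both groups shared strain, age and tissue, and the labels name no allele or drug. Ribosomal RNA was removed and the stranded kit was used without poly(A) selection, so that RNAs lacking a tail and unspliced precursors could be read as well.

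Transcripts between genes are often long non-coding RNAs, which are transcribed by RNA polymerase II and commonly spliced but hold no long reading frame. Many start beside the promoter of a protein-coding gene and run in the opposite direction, because most mammalian promoters fire both ways. Others are produced at enhancers, or are unannotated ends of neighbouring genes. In islets many long non-coding RNAs are known to be restricted to beta cells, and some lie beside genes for islet transcription factors.

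Part of the set had been given gene models in a later annotation. Of the 1430 loci, 267 shared an intron of exactly the same length with a gene of GENCODE M21, at a matching distance from neighbouring genes. By gene type 146 of these were long intergenic non-coding RNAs, 30 processed transcripts, 21 antisense and 10 bidirectional promoter RNAs, while 46 were protein-coding and the rest pseudogenes. A locus that matched genes of several types was counted under the type first in the alphabet. XLOC_031252, which matched the coding gene Dlg2 and Gm45159, thus stands as non-coding, and the protein-coding number may be too low. The splice junctions below belong to 6 loci that passed the diet test described further on, and are shown for the exons that the matching transcripts join. Each run holds 60 bases of the GENCODE M21 transcript, 5′ to 3′, and the capitals mark the 10 bases on each side of the exon junction.
Gm34225, in XLOC_031464: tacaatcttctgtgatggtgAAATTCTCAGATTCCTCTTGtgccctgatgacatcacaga
Gm45881, in XLOC_037273: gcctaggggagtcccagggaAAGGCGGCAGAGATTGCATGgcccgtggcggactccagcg
Gm49477, in XLOC_011981: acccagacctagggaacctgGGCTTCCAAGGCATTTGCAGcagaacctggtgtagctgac
Gm567, in XLOC_022331: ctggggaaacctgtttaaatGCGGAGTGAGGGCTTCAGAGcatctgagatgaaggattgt
Gm45579, in XLOC_025089: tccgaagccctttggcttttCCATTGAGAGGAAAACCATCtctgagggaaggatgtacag
AC061963.1, in XLOC_035831: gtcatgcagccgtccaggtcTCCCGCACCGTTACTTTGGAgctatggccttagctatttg
All 6 of these genes are classed as non-coding RNAs. The mm9 genome, to which the loci's coordinates refer, was not used here, so no sequence is shown for loci without a match.

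Most of the loci had few exons. There were 843 with 2 exons, 299 with 3 and 288 with 4 or more, up to 21, counting the transcript with most exons. Of these 15 had 10 or more. The longest transcript of a locus ran from 133 to 54167 bases without introns, with a median of 2534. In 421 loci that longest transcript was unspliced while another one was spliced. The transcript of 54167 bases was among the unspliced ones. Both strands were used, 761 loci lying on the plus and 669 on the minus strand. In 155 loci some exonic bases overlapped another locus, where reads may have been counted to neither, as the counting settings are not given in the sources used here.

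Levels were low. Mean levels over the 6 libraries ran from 0.0792 to 363 CPM (counts scaled by library size with TMM normalisation), with a median of 0.599 CPM. A level of 1 CPM was reached by 517 loci and 10 CPM by 91. Per kilobase of exon the median was 0.197 CPM, against 0.150 for 5702 new intergenic loci with a single exon and 4.004 for 14370 loci whose assembly record carries a p_id, the tag for a known coding sequence. The 1430 loci took between 0.554% and 0.632% of each library's counts.

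The nearest locus with a p_id lay at a median distance of 13.81 kb, with quartiles of 0.396 and 60.78 kb and a maximum of 1539 kb. The distances had a pair of peaks. Of the 411 loci under 1 kb from such a neighbour, 288 (70.1%) were divergent, meaning that locus and neighbour lay on opposite strands with adjacent starts from which transcription leads away to either side. Another 39 loci overlapped the assembled span of their nearest p_id locus. In the 288 divergent pairs the gap ran from 4 to 972 bases, with a median of 128.5. At 1 kb or more, 286 further loci were divergent, and the other orientations (convergent, or on the same strand upstream or downstream of the neighbour) were about as frequent.

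**Figure D1:**
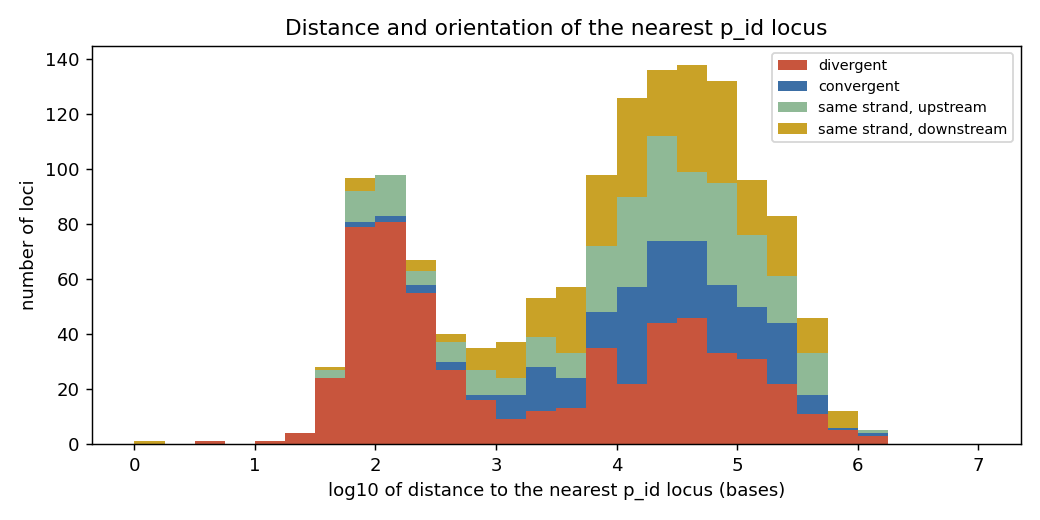
Number of new spliced intergenic loci (vertical axis) by the log10 of the distance in bases to the nearest locus with a p_id (horizontal axis), stacked by orientation; the 39 loci that overlap the neighbour's span are not drawn. Divergent loci form most of the peak near 100 bases, where the 288 divergent loci under 1 kb have a median gap of 128.5 bases, and all orientations share the broad peak beyond 5 kb.

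Libraries of the 3 normal and 3 high fat samples held 104657337 to 135353777 counts, and no pair of libraries of the same diet agreed within sampling noise. High fat library 3 stood apart in a principal component analysis, with a score of 59.2 on the second axis against -31.7 and -25.9 in the other high fat libraries. Islet markers were abundant: the summed beta-cell markers (8 of 10 matched) were at 58606 to 68923 CPM on the normal and 84345 to 103655 CPM on the high fat diet. Acinar markers (18 of 20 matched) summed to 3746 to 7234 and 5455 to 11678 CPM, alpha-cell markers to 22146 to 24469 and 17361 to 20999 CPM, and Schwann cell markers to 14.7 to 17.0 and 7.23 to 12.7 CPM. Of the marker genes Slc2a2, Nkx6-1, Ttr and Cd68 were listed at 0 in every library, although islet endocrine cells express the first 3 strongly, so that a 0 in this table is not evidence of absent RNA. The part of cell composition in the results below was not tested.

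On the high fat diet more of the new spliced loci fell than rose. In edgeR's quasi-likelihood fit over all 23859 tested loci, with p-values adjusted by Benjamini-Hochberg over all of them, 61 of the 1430 (4.27%) rose and 88 (6.15%) fell past a threshold of 0.05. Over all loci tested 10.6% passed, 5.87% higher and 4.73% lower, so the total of 10.4% among the new spliced loci lies near the background. Their median log2 fold change was -0.21, against -0.05 over all loci, -0.35 for new single-exon intergenic loci (98 higher, 259 lower) and 0.06 for loci with a p_id (1205 higher, 446 lower). In 571 loci the 3 high fat libraries did not overlap the 3 normal ones, 173 above and 398 below (39.9%, against 39.0% of all loci tested). In bulk RNA, fewer cells of a type and less RNA per cell cannot be told apart.

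Each normal diet library was needed for these calls. Leaving out normal diet library 1, 2 or 3 took the edgeR calls among the new spliced loci, as among loci of any kind, to 0. Unadjusted p-values below 0.05 then numbered 364, 379 and 361 among the new spliced loci. Leaving out high fat library 1 left 7 rises and 1 fall, and leaving out high fat library 2 left 7 and 0. With high fat library 3 left out there were 82 rises and 164 falls, where 12.3% and 8.02% of all loci passed in each direction. All 149 loci called with the 6 libraries kept their sign in each of these fits. In all 149 the diets did not overlap, so leaving out 1 library could hardly have reversed a sign. The kept signs thus say nothing of stability. No label ties a library to its own animals, and the spread behind each p-value may thus be technical.

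Rises and falls were spread unevenly over spliced length, by which the loci were split into 3 classes of like number. This length is that of the longest transcript, which in 421 of the 1430 loci was an unspliced model. It is therefore not always the length of a spliced RNA, and the part of such models in the classes was not tested. Among the 477 shortest, of at most 1808 bases, 28 (5.87%) were higher and 9 (1.89%) lower. Among the 477 longest, of at least 3492 bases, 13 (2.73%) were higher and 59 (12.4%) lower. The shares over all loci tested were 5.87% and 4.73%, so that rises in the shortest class were at the background. The median log2 fold change went from -0.0046 in the shortest class over -0.23 in the middle class (20 higher, 20 lower) to -0.35 in the longest. Across all 1430 loci the Spearman correlation of log2 fold change with spliced length was -0.28, given as a description since loci share libraries. Each library's median for the longest class, as log2 CPM relative to each locus's mean, was 0.227, 0.085 and 0.125 on the normal diet and -0.167, -0.227 and -0.024 on the high fat diet. The diets did not overlap, and high fat library 3 lay nearest to the normal diet. For the shortest class the same medians ran from -0.024 to 0.029 on the normal and from -0.008 to 0.068 on the high fat diet, and the diets overlapped.

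The longer loci also collected more counts, with a median of 1.52 CPM in the longest and 0.240 CPM in the shortest class (Spearman correlation of length with CPM 0.527). CPM is not divided by length here. Per kilobase of exon the medians were 0.1975, 0.1744 and 0.2235 CPM from shortest to longest, so the classes were similar in level per kilobase. In the highest of 3 classes by level, the shortest loci (80) had 17 higher and 2 lower and a median log2 fold change of 0.25, and the longest (292) had 12 higher and 44 lower and a median of -0.31. The same cuts of length gave a like order in the other kinds of locus. Loci with a p_id had 282 higher and 34 lower among the shortest and 457 and 339 among the longest, with medians of 0.16, 0.10 and 0.015 from shortest to longest. New single-exon loci had 84 and 57 among the shortest and 5 and 101 among the longest, with medians of -0.23, -0.46 and -0.54. Whether length goes with the diet difference more in one kind than in another was not tested.

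Exon classes differed less in their medians. Loci of 2 exons had 30 higher (3.56%) and 53 lower (6.29%) with a median log2 fold change of -0.25. Those of 3 exons had 12 (4.01%) and 13 (4.35%) with -0.13, and those of 4 or more 19 (6.60%) and 22 (7.64%) with -0.14. Over all loci the shares were 5.87% and 4.73%. In the longest class, falls outnumbered rises at each exon number, at 33 to 2 for 2 exons, 10 to 5 for 3 and 16 to 6 for 4 or more. In the shortest class of spliced length, 2-exon loci had 21 higher and 8 lower.

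The share of rises was lower near a coding neighbour, while that of falls had no order by distance. Over all loci tested the shares were 5.87% higher and 4.73% lower. Of the 411 loci under 1 kb away 4 were higher (0.973%) and 26 lower (6.33%), with a median log2 fold change of -0.26. Of the 134 at 1 to 5 kb 4 were higher (2.985%) and 11 lower (8.21%), with a median of -0.27. From 5 to 20 kb the 265 loci had 12 higher (4.53%) and 11 lower (4.15%), with a median of -0.19. From 20 to 100 kb the 378 loci had 24 higher (6.35%) and 25 lower (6.61%), with a median of -0.18. The 242 loci at 100 kb or more had 17 higher (7.03%) and 15 lower (6.198%; -0.10). The Spearman correlation of log2 fold change with distance was 0.112 across the 1430 loci. Among the loci at 100 kb or more the shortest class had 8 higher and 1 lower (median 0.18) and the longest class 2 and 8 (-0.33).

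**Figure D2:**
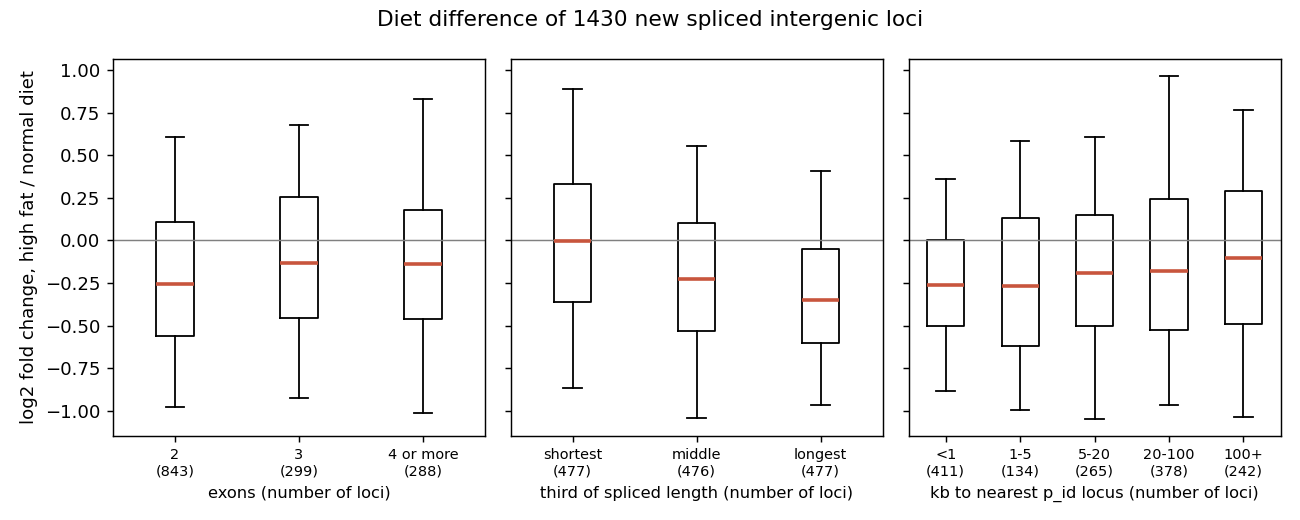
Log2 fold change of the 1430 loci, high fat over normal diet (vertical axis), by exon number, class of spliced length and kb to the nearest locus with a p_id; boxes span the quartiles with the median in red, whiskers run from the 5th to the 95th percentile, and loci per box are in brackets. The medians step down from -0.0046 to -0.35 with length and differ less between the classes of exon number and distance. Length is that of the longest transcript, which was an unspliced model in 421 loci.

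Among the loci that rose, the 8 with the largest changes (a mean of at least 0.5 CPM and no overlap between diets) lay between 9.19 and 222 kb from the nearest coding neighbour. XLOC_000549, with 4 exons on the plus strand of chromosome 1 (mm9 chr1:159507742-159690570), stood at 9.78, 9.02 and 6.91 CPM in normal diet libraries 1 to 3. Its levels in high fat libraries 1 to 3 were 20.1, 24.1 and 27.5 CPM. Every high fat library held more than 2-fold the highest normal one, and the mean went from 8.57 ± 1.49 to 23.9 ± 3.69 CPM (SD, n = 3), a log2 change of 1.48 (SE 0.17, edgeR adjusted p = 0.011). It begins 9.19 kb downstream of Sec16b, a gene for a protein of endoplasmic reticulum exit sites, on the same strand. Sec16b itself went from 81.3 ± 3.73 to 102.6 ± 7.06 CPM (0.34, SE 0.084, edgeR adjusted p = 0.042).

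XLOC_031464, which contains the introns of Gm34225 shown above, lies on chromosome 7 (mm9 chr7:122158058-122210341, plus strand), 164 kb from Insc, a gene for a regulator of spindle orientation. It held 6.33, 7.44 and 8.30 CPM on the normal diet. On the high fat diet it held 17.5, 14.5 and 16.3 CPM, all above the normal libraries (log2 fold change 1.13, SE 0.14, edgeR adjusted p = 0.012). Insc, at low means of 0.547 CPM on the normal and 0.598 CPM on the high fat diet, had a log2 fold change of 0.12 and did not pass (edgeR adjusted p = 0.79). XLOC_037273, with introns of Gm45881, showed a like rise, from 7.11 ± 1.08 to 14.3 ± 1.47 CPM (SD, n = 3). XLOC_011981, with the intron of Gm49477, went from 2.75 ± 0.81 to 5.55 ± 0.42 CPM. Both had a log2 fold change of 1.01, with edgeR adjusted p-values of 0.018 and 0.032.

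The steepest rises under that rule were in loci with mean levels below 2 CPM on both diets. XLOC_010448, a 2-exon RNA of 419 bases 222 kb downstream of Olfm4 (mm9 chr14:80645296-80660719, plus strand), held 0.296, 0.210 and 0.253 CPM on the normal diet. In the high fat libraries it held 1.46, 1.23 and 1.17 CPM (log2 fold change 2.34 with SE 0.22, edgeR adjusted p = 0.0091). Olfm4 encodes a secreted glycoprotein known from intestinal stem cells, and its own log2 fold change of -0.45 did not pass. XLOC_008551, with 5 exons on chromosome 13 (mm9 chr13:71865749-71993966, plus strand), held 0.280, 0.365 and 0.225 CPM on the normal and 1.12, 3.19 and 0.963 CPM on the high fat diet. High fat library 2 held the most, and its log2 change of 2.60 (SE 0.48, edgeR adjusted p = 0.024) was 1.85 without that library. Its nearest coding neighbour, Irx1, converges on it from 93.3 kb away and moved the other way.

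Irx1 encodes a homeodomain transcription factor found in alpha cells. Its levels were 13.5, 18.2 and 16.2 CPM on the normal and 9.45, 8.17 and 6.33 CPM on the high fat diet (means 15.96 ± 2.36 and 7.98 ± 1.57, SD, n = 3; edgeR adjusted p = 0.023). The other rises of the 8 were those of XLOC_026280 (98.5 kb from Gnpda2, a gene of amino sugar metabolism) at 1.57, XLOC_013715 (71.5 kb from Nfkbiz, which encodes a nuclear regulator of NF-kappa-B) at 1.36, XLOC_032271 at 1.24 and XLOC_024419 at 1.17 on the log2 scale. Gnpda2 and Nfkbiz did not pass, at 0.22 and -0.035. Nfkbiz was counted at only 0.226 ± 0.015 CPM on the normal and 0.222 ± 0.107 CPM on the high fat diet (SD, n = 3). With an SE of 0.37 for its log2 fold change, little can be said of its change.

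**Figure D3:**
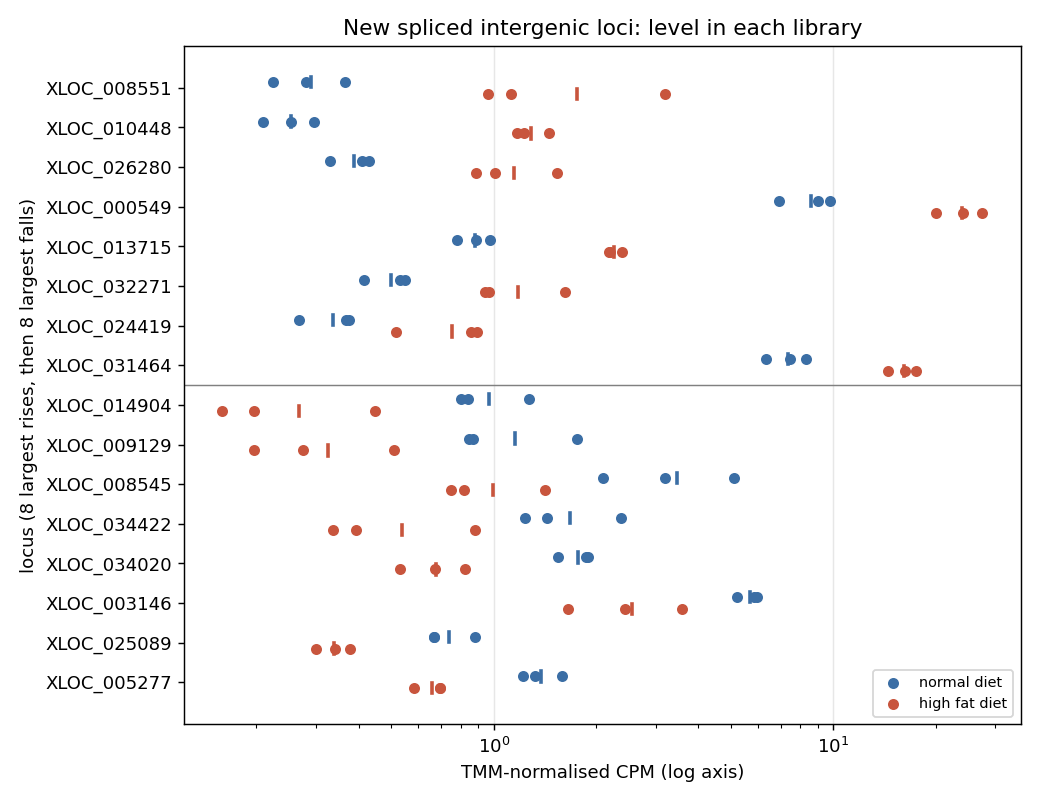
Level in each library (TMM-normalised CPM, log axis) of the 8 loci with the largest rises and the 8 with the largest falls among those past the test with a mean of at least 0.5 CPM; points are libraries, ticks are diet means (n = 3). XLOC_000549 and XLOC_031464 are the most abundant of the rises, and by the rule of choice no locus has overlapping diets.

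Very low normal diet levels were seen in a pair of loci with a later gene model. XLOC_022331, which has the introns of the non-coding gene Gm567, lies on chromosome 3 (mm9 chr3:136952595-136963705, plus strand), 40.3 kb from Emcn, a gene for an endothelial sialomucin. It held 0.0721, 0.110 and 0.0842 CPM on the normal and 0.583, 0.589 and 0.455 CPM on the high fat diet (log2 fold change 2.61, SE 0.28, edgeR adjusted p = 0.0095). XLOC_010971, which shares 7 introns with Gm9195, was at 0.0160, 0 and 0.0211 CPM on the normal and 0.345, 0.393 and 0.123 CPM on the high fat diet, from 5 and 93 counts. It is one of the loci that met the minimum of 60 counts only through the high fat libraries, so neither a fold nor its test is given.

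The 8 largest falls included an RNA beside a metallothionein gene. XLOC_034020, with 2 exons, starts 3.08 kb downstream of Mt1 on the plus strand of chromosome 8 (mm9 chr8:96707311-96711537). It held 1.89, 1.54 and 1.87 CPM on the normal and 0.821, 0.672 and 0.532 CPM on the high fat diet (log2 fold change -1.39, SE 0.21, edgeR adjusted p = 0.019). Mt1, which encodes a metal-binding protein induced by zinc and stress, fell with it, from 81.6 ± 7.75 to 39.4 ± 12.9 CPM (SD, n = 3; -1.05, SE 0.21, edgeR adjusted p = 0.027). In both, each high fat library was below each normal one.

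The neighbours of the other large falls did not pass the test. XLOC_003146, in divergent orientation 17.2 kb from Prep, a prolyl endopeptidase gene (mm9 chr10:44750787-44769849, minus strand), held 5.98, 5.19 and 5.86 CPM on the normal diet and 2.44, 1.65 and 3.59 CPM on the high fat diet (-1.14, SE 0.25, edgeR adjusted p = 0.032). Prep stood at -0.12. XLOC_014904, 54.9 kb from the sodium-calcium exchanger gene Slc8a1, fell by 1.83 on the log2 scale, and another locus overlaps 17.4% of its exonic bases. XLOC_034422, 106 kb from Thap1, fell by 1.63. In both, high fat library 3 was nearest to the normal diet (0.447 and 0.878 CPM), and without it they stood at -2.45 and -2.21.

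Of the 8 falls 2 have later gene models. XLOC_025089, with the intron of Gm45579 shown above, was at 0.881, 0.666 and 0.667 CPM on the normal and 0.300, 0.341 and 0.378 CPM on the high fat diet (-1.11, SE 0.22, edgeR adjusted p = 0.027). XLOC_005277, a 15-exon locus on chromosome 11 (mm9 chr11:8836896-8878667, minus strand), shares 12 introns with Pkd1l1, a polycystin family gene. It went from 1.38 ± 0.19 to 0.656 ± 0.064 CPM (SD, n = 3; -1.07, edgeR adjusted p = 0.023). Among all 267 loci with a shared intron 12 rose and 20 fell. By the gene type given to each, the long non-coding matches numbered 207 (8 higher, 3.87%, and 15 lower, 7.25%). The coding ones numbered 46 (2, 4.35%, and 5, 10.9%) and the pseudogenes 14 (2 and 0). Of the 1163 loci with no shared intron 49 (4.21%) rose and 68 (5.85%) fell. Over all loci tested the shares were 5.87% and 4.73%, and no class was tested against them.

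The remaining falls adjoin one another on chromosome 13. XLOC_008545, on the plus strand with 5 exons, held 3.20, 2.099 and 5.09 CPM on the normal and 0.751, 0.817 and 1.42 CPM on the high fat diet (log2 fold change -1.79, SE 0.36, edgeR adjusted p = 0.027). XLOC_009129, on the minus strand with 4 exons, held 0.849, 0.867 and 1.75 CPM on the normal and 0.274, 0.197 and 0.509 CPM on the high fat diet (-1.80, SE 0.41, edgeR adjusted p = 0.034). Their starts overlap head to head by 304 bases, and library 3 was the highest of each diet in both. Whether counting used strand is not given in the sources used here, so reads of the overlap cannot be assigned to one of them.

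This stretch was followed further after its values had been seen. Between bases 70222171 and 70300442 (mm9, 78.3 kb) lie 6 tested loci, all of them new, of which 5 passed as lower and 0 as higher. Since the stretch was chosen by its values, this count is a description and no support. It includes the 2-exon locus XLOC_008546 and the single-exon locus XLOC_009615, which reached 60 counts only through the normal diet libraries. The calls of XLOC_008546 and XLOC_009615 are counted among the 5, although they follow in part from the filter. For the same reason their folds and p-values are not quoted in the text. The plot of the 6 adjoining loci shows their folds and calls, which are to be read with that limit. The single-exon locus XLOC_009614 had a log2 fold change of -2.30. XLOC_009618 had -1.35 and did not pass (edgeR adjusted p = 0.084). The flanking coding genes Med10, a Mediator subunit gene, and Ice1, a gene for a subunit of the little elongation complex, had 0.18 and 0.061 and did not pass. Farther along the chromosome Irx2, another alpha-cell transcription factor gene, fell by 0.53 (edgeR adjusted p = 0.027), as did Irx1. Alpha-cell markers as a list had 2 of 5 matched members lower, namely Irx1 and Irx2, and their part in these falls was not tested.

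**Figure D4:**
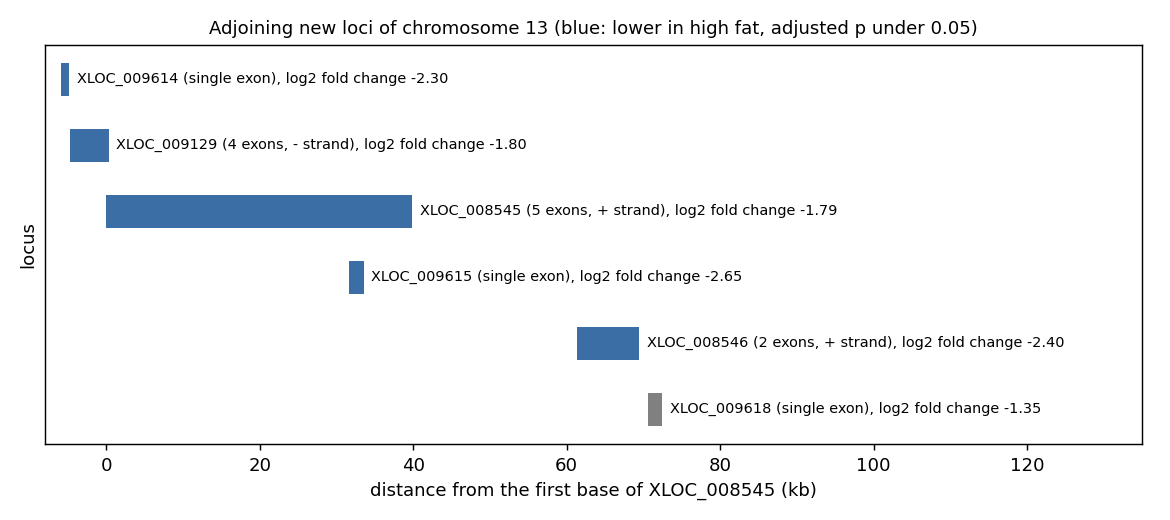
The 6 adjoining new loci of chromosome 13, drawn to scale by their distance in kb from the first base of XLOC_008545 (horizontal axis), one per row, with their log2 fold change, high fat over normal diet. The 5 blue loci were lower on the high fat diet at an adjusted p of 0.05, and XLOC_009618, in grey, did not pass. Of the blue loci, XLOC_008546 and XLOC_009615 reached the count minimum only through the normal diet libraries, so their call follows in part from the filter.

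Divergent loci close to a coding start were next set beside their neighbours. The promoters below are 4 of those shared start regions, chosen because the new locus passed the test: Serpina7 and Klf11, where it rose, and Scg3 and Kmt2a, where it fell. Each run is the RefSeq promoter window on GRCm38.p6, 5′ to 3′ on the coding gene's strand, with the 50 bases after the gene's start in capitals and 250 bases before it in lower case.
Serpina7: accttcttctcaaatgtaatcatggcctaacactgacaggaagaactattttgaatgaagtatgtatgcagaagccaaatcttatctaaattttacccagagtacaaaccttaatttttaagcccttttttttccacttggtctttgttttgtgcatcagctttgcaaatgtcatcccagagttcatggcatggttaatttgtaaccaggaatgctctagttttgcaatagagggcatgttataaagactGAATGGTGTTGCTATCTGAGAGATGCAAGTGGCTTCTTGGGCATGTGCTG
Klf11: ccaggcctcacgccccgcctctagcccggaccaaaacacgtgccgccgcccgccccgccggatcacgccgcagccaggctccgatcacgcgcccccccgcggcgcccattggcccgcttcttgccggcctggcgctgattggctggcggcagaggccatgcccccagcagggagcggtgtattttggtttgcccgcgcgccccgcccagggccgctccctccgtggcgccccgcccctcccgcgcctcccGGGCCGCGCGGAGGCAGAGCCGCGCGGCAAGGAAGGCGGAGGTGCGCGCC
Scg3: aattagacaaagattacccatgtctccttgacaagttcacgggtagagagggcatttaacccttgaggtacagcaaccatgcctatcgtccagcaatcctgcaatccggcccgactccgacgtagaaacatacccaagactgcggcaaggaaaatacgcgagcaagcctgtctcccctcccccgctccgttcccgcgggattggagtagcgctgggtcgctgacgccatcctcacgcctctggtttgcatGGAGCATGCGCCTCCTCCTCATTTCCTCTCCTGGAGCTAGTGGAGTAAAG
Kmt2a: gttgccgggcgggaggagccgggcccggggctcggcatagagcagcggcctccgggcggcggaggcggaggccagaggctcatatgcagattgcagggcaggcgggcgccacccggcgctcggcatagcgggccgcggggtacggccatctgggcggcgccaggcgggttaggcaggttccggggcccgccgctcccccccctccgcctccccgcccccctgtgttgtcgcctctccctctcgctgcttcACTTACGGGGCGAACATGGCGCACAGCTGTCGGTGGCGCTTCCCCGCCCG
The windows lie at chrX:139085187-139085486 (minus strand), chr12:24651121-24651420 (plus), chr9:75684007-75684306 (minus) and chr9:44881240-44881539 (minus). The Serpina7 window holds no CpG dinucleotide and has the motif TATAAA. The other 3 hold 42, 18 and 36 CpGs and lack that motif. The motif CCAAT was found in the Klf11 and Scg3 windows and GGGCGG in those of Klf11 and Kmt2a. Motifs were searched on both strands, and overlaps between them were not removed. Over 27025 RefSeq promoters of the same length the median was 7 CpGs, and 14.2% held the first motif, 38.0% the second and 35.9% the last, in the order given above. These include promoters of genes not tested here. Of the 14370 tested loci with a p_id, 7825 had a window, with a median of 20 CpGs. In those windows the shares of the motifs were 7.51%, 38.7% and 65.0%, in the same order. A match is only a run of letters. A comparison over all 288 divergent pairs is void, since only 163 of the neighbours had a promoter window.

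At Serpina7, which encodes thyroxine-binding globulin, both sides rose. The divergent locus XLOC_038354 starts 57 bases away (mm9 chrX:135619853-135629858, plus strand) and has the introns of 4930513O06Rik. It held 0.192, 0.201 and 0.351 CPM on the normal and 0.645, 0.465 and 0.640 CPM on the high fat diet (log2 fold change 1.22, SE 0.30, edgeR adjusted p = 0.039). Serpina7 held 27.9, 32.0 and 34.9 CPM on the normal and 137.6, 103.0 and 83.5 CPM on the high fat diet (1.77, SE 0.18, edgeR adjusted p = 0.0091). High fat library 1 was the highest in both.

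At Scg3 the 2 sides moved apart. Scg3 encodes secretogranin III, a protein of the membrane of secretory granules. It went from 1722, 2047 and 1731 CPM to 2894, 2795 and 2840 CPM (0.63, SE 0.091, edgeR adjusted p = 0.018). The divergent 2-exon locus XLOC_036090, 63 bases away (mm9 chr9:75531926-75538033, plus strand), went from 17.1, 15.1 and 12.95 CPM to 10.6, 10.2 and 11.3 CPM (-0.49, SE 0.13, edgeR adjusted p = 0.048). Every high fat library was above the normal ones for Scg3 and below them for XLOC_036090.

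At Klf11, which encodes a zinc finger factor that binds the insulin promoter, the new locus passed and the gene did not. XLOC_007334, 267 bases away on the minus strand (mm9 chr12:25319922-25335969), held 31.1, 38.3 and 32.7 CPM on the normal and 57.5, 55.5 and 57.9 CPM on the high fat diet (0.74, SE 0.099, edgeR adjusted p = 0.015). Klf11 held 50.9, 55.9 and 45.4 CPM on the normal and 52.6, 71.3 and 61.8 CPM on the high fat diet (0.29, SE 0.13, edgeR adjusted p = 0.16). Its diets overlapped, while those of XLOC_007334 did not.

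At Kmt2a, which encodes a histone methyltransferase, the new locus fell and the gene did not pass. XLOC_035831, which has the intron of AC061963.1 and starts 54 bases away (mm9 chr9:44689446-44692726, plus strand), held 3.73, 4.37 and 3.83 CPM on the normal and 2.38, 1.82 and 1.97 CPM on the high fat diet (-0.95, SE 0.16, edgeR adjusted p = 0.021). Kmt2a had 17.6 ± 1.59 and 12.7 ± 1.55 CPM (SD, n = 3; -0.47, SE 0.13, edgeR adjusted p = 0.053) and did not pass.

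Over the 281 divergent pairs under 1 kb with a tested neighbour, 2 new loci rose and 16 fell, whereas 37 neighbours rose and 11 fell. Of all loci with a p_id 8.39% rose and 3.10% fell. In 2 pairs both sides passed in the same direction and in 1, that of Scg3, in opposite directions. The second pair with the same direction was XLOC_011914 and Nckap5l, a gene for a microtubule-associated protein, at -0.82 and -1.31. The new locus had the lower log2 fold change in 212 of the 281 pairs, with medians of -0.24 for the loci and 0.11 for the neighbours. Over all 1289 pairs at any distance it had the lower one in 881, with medians of -0.23 and 0.087, so this difference was not particular to divergent pairs. The Spearman correlation between the 2 sides was 0.193 across pairs, which share their libraries, against 0.172 over all 1289 pairs. Among the divergent loci that fell, XLOC_015709 beside Pkdcc went from 23.3 ± 1.90 to 14.8 ± 0.99 CPM (SD, n = 3; -0.65, edgeR adjusted p = 0.021), with Pkdcc itself listed at 0 in all libraries.

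**Figure D5:**
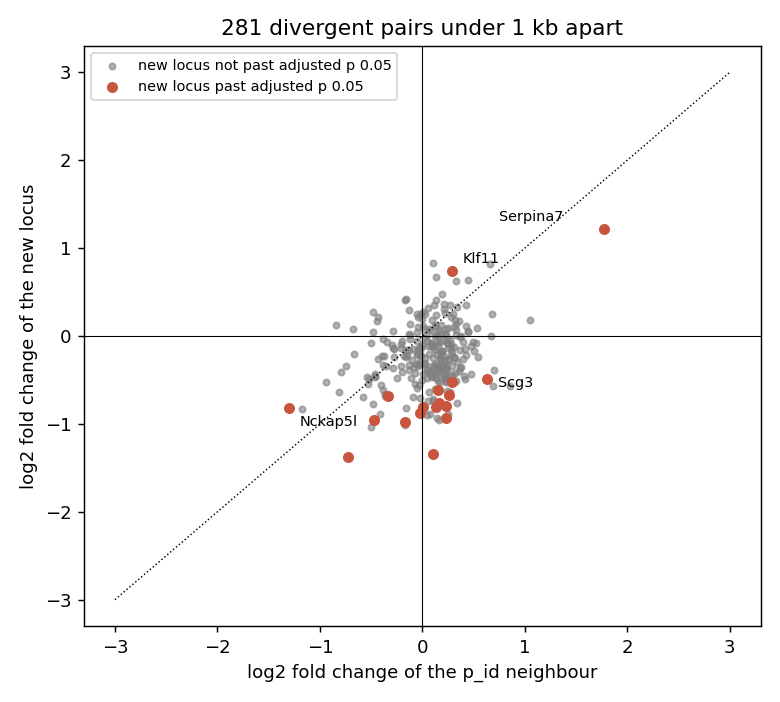
Log2 fold change, high fat over normal diet, of the new locus (vertical axis) and of its neighbour with a p_id (horizontal axis) in the 281 divergent pairs under 1 kb; each point is a pair, red where the new locus passed an adjusted p of 0.05, and the dotted line marks equal change. Most points, 212 of 281, lie below the line, and Serpina7 is the pair farthest to the upper right.

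In a pair of close cases of other orientation both sides fell. XLOC_024020 ends 171 bases upstream of Lrp8, an apolipoprotein E receptor gene, on the same strand (mm9 chr4:107463718-107474693). It held 3.26, 2.68 and 2.79 CPM on the normal and 1.74, 1.54 and 1.82 CPM on the high fat diet (-0.77, SE 0.15, edgeR adjusted p = 0.027), and Lrp8 stood at -0.75 (SE 0.19, edgeR adjusted p = 0.041). XLOC_030509, inside the span of the chromatin remodeller gene Bicra, fell by 0.82, as did Bicra. Of the loci at or under 1 kb on the same strand, the Spearman correlation between locus and neighbour was 0.381 for 48 upstream and 0.325 for 22 downstream.

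The most abundant loci gave both directions. XLOC_027207 has 8 exons on the minus strand of chromosome 5 (mm9 chr5:101960552-102010519) and held 424, 370.7 and 498.6 CPM on the normal and 222, 260.0 and 282.9 CPM on the high fat diet. It fell by 0.76 on the log2 scale (SE 0.13, edgeR adjusted p = 0.022). XLOC_029617, 151 kb upstream of Prok2, a gene for a secreted peptide, rose from 307.6 ± 14.6 to 419 ± 30.8 CPM (SD, n = 3; 0.45, edgeR adjusted p = 0.026). Another locus overlaps 60.7% of its exonic bases. Rises were also seen in XLOC_019245, 141 kb from Mettl15, from 146.5 to 194.1 CPM, and in XLOC_016189 on chromosome 18, from 129.3 to 193.0 CPM, by 0.41 and 0.58.

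XLOC_028816, 25.8 kb upstream of Pparg, a fat cell nuclear receptor gene, and XLOC_031220, 10.1 kb from the cytokine gene Il16, did not pass. They stood at 0.31 (edgeR adjusted p = 0.096) and 0.25 (edgeR adjusted p = 0.077). Per kilobase of exon XLOC_031220 had the highest level of these 6, at 154 CPM, and XLOC_016189 the lowest, at 6.01 CPM.

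Loci of extreme size or place completed the description. With 21 exons, XLOC_010539 (introns of Gm281), XLOC_011716 (introns of Gm35339, 62 bases from Maf1) and XLOC_031394 (introns of Dnhd1, a dynein heavy chain gene) had the most. XLOC_010539 went from 44.5 ± 8.20 to 26.1 ± 5.06 CPM (SD, n = 3; -0.77, edgeR adjusted p = 0.034) and XLOC_011716 from 6.61 ± 0.82 to 4.41 ± 0.25 CPM (-0.59, edgeR adjusted p = 0.040). XLOC_031394 had -0.27 and did not pass.

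The longest, XLOC_019476, lies on chromosome 2 (mm9 chr2:147803518-147857684, plus strand). Its longest transcript, of 54167 bases, covers the whole span of the locus and is thus an unspliced model. The locus converges with Foxa2, an endoderm and islet transcription factor gene, from 10.9 kb away. It held 15.8, 10.04 and 11.1 CPM on the normal and 5.77, 5.13 and 7.39 CPM on the high fat diet (-1.01, SE 0.21, edgeR adjusted p = 0.028), while Foxa2 had -0.23 and did not pass. XLOC_035852, with introns of Gm31432, and XLOC_032952, 510 kb from the proliferation gene Mki67, were also long and had -0.38 and -0.86, short of the threshold. Another locus overlaps 48.2% of the exonic bases of XLOC_032952. Mki67 itself rose by 0.95 on the log2 scale (SE 0.26, edgeR adjusted p = 0.0498). Farthest from a coding neighbour were XLOC_034056 (1539 kb from Got2), XLOC_016590 and XLOC_018753, at 0.23, 0.083 and 0.0092, none of which passed. Of the loci that overlap a neighbour's span, XLOC_028688, beside the acetyltransferase gene Nat8f3, rose by 0.43 (edgeR adjusted p = 0.030). In XLOC_028688 24.3% and in XLOC_025414 27.6% of the exonic bases are overlapped by another locus. XLOC_011564 (introns of Fer1l6) and XLOC_025414 did not pass, at 0.17 and -0.56, while Tmem65, whose span XLOC_011564 overlaps, rose by 0.42 (SE 0.076, edgeR adjusted p = 0.024).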

How the data were processed

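The authors deposited raw counts of reads per locus for 6 libraries, a table of scaled values that was not used here, and the assembled transcripts with mm9 coordinates. Upstream work used HTSeq 0.5.4p3, Cufflinks 2.1.1, edgeR and TopHat2 2.0.8, per the submitters' processing notes; settings are not given in the sources used here. The columns named HDR were read as the high fat diet, an inference from the names on which every direction depends.

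Counts were fitted in R 4.3.3 with edgeR 4.0.16 (TMM, quasi-likelihood, diet only, two-sided, loci with at least 60 counts, Benjamini-Hochberg over 23859 loci, threshold 0.05); the common dispersion was 0.02955. SE is the absolute log2 fold change over the square root of F. Alternatives used DESeq2 1.42.0, limma 3.58.1, other filters and scalings, a replicate block and each library left out. The fit was tested on simulated data.

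Genes were named by matching ordered exon and intron lengths to GENCODE M21, each in its own build (19626 loci; for loci of 2 exons, ends within 40 bases). New loci were linked to M21 genes by an exact intron length and an offset within 2000 bases relative to 1 of the 3 nearest named loci. No coordinates were converted. Antisense and overlapping loci cannot be told apart where counting ignored strand.

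The loci and lists were chosen with earlier results of these data known. Named are the 8 largest changes each way among loci called, averaging at least 0.5 CPM, whose diets did not overlap; the 6 most abundant; the 3 with most exons, the 3 longest, the 3 nearest and the 3 farthest, of at least 0.5 CPM for both, with ties (39 loci at distance 0) going to the higher mean CPM; their neighbours; and loci with a later gene model. Close pairs past the threshold and the chromosome 13 stretch were chosen after their values were seen. One neighbouring gene taken by this rule is not reported here.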

Additional observations from a re-analysis of the deposited data

How the results depend on the processing

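Among the new spliced loci, the 61 higher and 88 lower became 93 and 146 with DESeq2 and 1 and 0 with a replicate block; over all loci the 1400 and 1129 became 2236 and 1842, and 11 and 2. Leaving out 1 library gave 0 to 82 and 0 to 164 for the new spliced loci, 0 to 2934 and 0 to 1914 for all loci, and a median log2 fold change of the new spliced loci from -0.27 to -0.18. The labels do not say whether the replicate numbers pair the samples. Deviations of same-numbered libraries from their diet means correlated at -0.0704, 0.0726 and -0.0025. With so few libraries per diet these values cannot show whether samples were paired, so the fit with the block is not set aside. With the exon number of the longest transcript, 2-exon loci (then 630, from 843) had 32 lower and loci of 4 or more exons (then 184, from 288) 8 higher and 14 lower. With the nearest coding locus sought on the same strand alone, loci under 1 kb (then 84, from 411) had 1 higher and 8 lower, and loci at 100 kb or more (then 539, from 242) 29 and 35. A minimum of 300 counts, chosen after seeing the data, left 2 lower in the shortest class of length. Leaving out 1 library, also added afterwards for these classes, gave ranges of 0 to 40 higher and 0 to 12 lower in the shortest class, 0 to 17 and 0 to 112 in the longest, 0 to 47 and 0 to 88 for 2 exons, 0 to 21 and 0 to 43 for 4 or more, 0 to 7 and 0 to 48 under 1 kb, and 0 to 22 and 0 to 31 at 100 kb or more. Of 74 tabulated loci past the threshold, 71 remained past it with RLE size factors, 72 with DESeq2 and 63 with limma voom. With filterByExpr 74 remained, with no filter 68 and with the block 1. In these fits 0 changed sign, which could hardly have occurred, since the diets did not overlap in any of these loci. The median of the longest class ran from -0.41 to -0.29 over the fits with other scalings, DESeq2, voom, the block or 1 library left out, and that of the shortest from -0.048 to 0.019. Fewer calls were made at low depth: of the lowest of 3 classes by level 7 were higher and 16 lower, against 42 and 53 of the highest class.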
